A study of Homo sapiens with 9 samples.

Results

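The 61 genes described here act in ribosome biogenesis and RNA polymerase I transcription. They were taken by gene symbol from a table of 27800 symbols: the first subunits of RNA polymerase I (POLR1A to POLR1E), its factors UBTF and RRN3, the numbered UTP, NOP, RRP and EXOSC genes, and a set of assembly factors chosen by name (FBL, DKC1, GAR1, NHP2, BOP1, PES1, WDR12, NIP7, RRS1, BYSL, LTV1, NOB1, NCL, NPM1 and NOLC1). The choice went by symbol and not by measured value, but earlier results of these data were known when it was made. The symbol patterns also took the antisense transcripts NOP14-AS1 and NOP53-AS1 and the pseudogene RRP7BP, which leaves 58 protein-coding genes. All 61 reached 1 TPM (a library-scaled level per transcript length) in 3 libraries or more and so were tested, and 60 of them did so in every library, NOP53-AS1 being the exception.

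RNA was sequenced from PANC-1, an established line of human pancreatic tumor cells, with 3 libraries each at day 0, day 2 and day 14. The medium was low in amino acids (20% of the usual level), in serum (0.5%) and in glucose (2.5 mM), and oxygen was limited as well. The labels give these conditions in the same words for all 9 libraries, so how day 0 cells were kept is not stated apart, and no other treatment is named. The column names of all 9 libraries begin with WT, read here as wild type. A single tumor line was used, and the labels do not say whether the 3 libraries of a day came from separate cultures, so p-values measure the spread between these libraries, which may be technical.

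Ribosomes are built in the nucleolus. RNA polymerase I transcribes the long precursor of most ribosomal RNA, small nucleolar RNA particles direct its chemical modification, a large processome folds and cuts the part that becomes the small subunit, and a separate set of assembly factors builds the large subunit. The RNA exosome trims the precursor and degrades the spacers. Building ribosomes is among the costliest tasks of a growing cell, and its genes are known to answer to nutrient supply and, in many tumors, to the transcription factor MYC, which binds the E-box CACGTG with its partner MAX.

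Promoter sequence was examined for that E-box because it is a feature the choice of genes did not use. In the RefSeq promoter table (GRCh38.p14, 250 bases before to 50 bases after each start), 50 of the 61 symbols had an entry. CACGTG, which reads the same on both strands, was present in 14 of these 50 (28%) and in 35 of 125 promoters of other ribosome biogenesis genes (28%). Among tested genes with an entry it was present in 1289 of 10198 (12.6%), and in the whole table in 2396 of 27305 (8.77%). Upstream stretches of 4 genes are shown, 3 that hold the E-box and 1 that does not, each 250 bases read 5′ to 3′ on the gene's strand and ending at the base before the start, with the motif in capitals. NOP10 lies on chr15:34343137-34343386 (minus strand), UTP18 on chr17:51260296-51260545 (plus strand), UTP20 on chr12:101279855-101280104 (plus strand) and RRP1 on chr21:43789327-43789576 (plus strand).
NOP10: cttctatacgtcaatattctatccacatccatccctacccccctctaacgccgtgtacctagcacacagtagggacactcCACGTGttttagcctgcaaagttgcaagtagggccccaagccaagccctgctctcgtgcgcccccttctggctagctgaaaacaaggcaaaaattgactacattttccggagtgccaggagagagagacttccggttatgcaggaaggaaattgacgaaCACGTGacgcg
UTP18: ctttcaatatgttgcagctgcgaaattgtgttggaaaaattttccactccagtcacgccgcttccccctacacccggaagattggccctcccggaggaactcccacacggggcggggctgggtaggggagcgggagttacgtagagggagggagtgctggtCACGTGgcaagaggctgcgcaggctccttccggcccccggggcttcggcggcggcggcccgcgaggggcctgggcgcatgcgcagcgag
UTP20: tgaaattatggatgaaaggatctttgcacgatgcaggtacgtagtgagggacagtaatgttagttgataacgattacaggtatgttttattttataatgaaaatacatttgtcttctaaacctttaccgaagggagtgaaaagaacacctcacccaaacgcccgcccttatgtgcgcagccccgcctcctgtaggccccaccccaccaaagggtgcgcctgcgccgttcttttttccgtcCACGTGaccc
RRP1: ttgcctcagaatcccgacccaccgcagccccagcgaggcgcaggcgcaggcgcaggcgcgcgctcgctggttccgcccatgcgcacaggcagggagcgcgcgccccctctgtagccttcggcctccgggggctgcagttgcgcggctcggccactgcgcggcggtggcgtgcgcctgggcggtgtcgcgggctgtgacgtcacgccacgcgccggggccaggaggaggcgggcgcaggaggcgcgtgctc
NOP10, a small protein of the box H/ACA particle, has E-boxes that begin 170 and 11 bases before the start. UTP18 has one 89 bases before and another 4 bases after the start, past the stretch shown. UTP20 has one 10 bases before. RRP1 has no such letters in this window. Of the genes lower at day 2 than at day 0, 4 of 17 with a promoter entry held the motif (23.5%), against 10 of 33 of the others (30.3%), and no test was made of that difference.

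The libraries were checked before the comparisons. All 6 markers of pancreatic duct epithelium (KRT7, KRT8, KRT18, KRT19, SOX9 and EPCAM) reached 1 TPM, and their summed level was 3190 to 4420 TPM at day 0, 1100 to 1320 TPM at day 2 and 1260 to 1430 TPM at day 14. KRT8, KRT18, KRT19 and EPCAM were lower at both later days. The means of SOX9 (45.5, 56.5 and 93.3 TPM over the days in order) and KRT7 (5.74, 7.6 and 7.61 TPM) were not. No marker of acinar cells (0 of 5), islets (0 of 4) or endothelium (0 of 4) reached 1 TPM. Of the fibroblast markers 2 of 5 did (COL1A1 and COL3A1), summing to 10.5 to 62.8, 56.6 to 74.0 and 8.66 to 13.2 TPM over the days in order, and of the blood markers 1 of 6 (CD68), summing to 35.3 to 68.8, 21.6 to 39.7 and 40.7 to 56.4 TPM. A pair of microRNA symbols, MIR6723 and MIR4461, took 22.4% to 40.3% of all TPM in each library, and TPM keeps no sequencing depth. The part of these values in the results was not tested.

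Day 0 replicate 2 stood apart. It correlated at 0.87 with day 0 replicate 1 and at 0.875 with replicate 3, which correlated at 0.972 with each other, and only 11363 symbols reached 1 TPM in it, where the remaining 8 libraries had 13016 to 13868. Its ribosomal protein genes made up 23.8% of TPM (10.2% to 14.8% elsewhere). Levels in it differed with transcript length. POLR1A had 2.57 TPM in this library, against 20.1 and 19.2 TPM in the other day 0 libraries, and EXOSC10 had 5.95 TPM, against 56.3 and 55.1 TPM. EXOSC4 had 175 TPM, against 61.3 and 64.5 TPM. Over the 61 genes, the log2 difference between this library and the mean of the other day 0 libraries had a median of 0.38 for the 15 with a median transcript length up to 1000 nt and of -0.98 for the 12 over 3000 nt. Neither class moved as one: 5 of the 15 shorter genes were below 0, and 2 of the 12 longer genes were above 0. The length is the median over a gene's annotated protein-coding transcripts, which can be shorter than its main transcript, so the classes are approximate. UTP4 (742 nt by this measure, -2.08) and NCL (748 nt, -0.90) may therefore be placed in too short a class. Because this library stood apart, each comparison is given with and without day 0 replicate 2.

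Together the 61 genes held 7761, 12651 and 8075 TPM at day 0, 5284, 6423 and 5339 TPM at day 2, and 8170, 6502 and 6412 TPM at day 14. FBL, the methyltransferase of box C/D particles, made up 35.6% to 48.6% of that sum. Without FBL and the nucleolar chaperone NPM1 the sums were 3762, 4090 and 3806 TPM at day 0, 2180, 2521 and 2248 TPM at day 2, and 3797, 2911 and 2895 TPM at day 14. Over all 61 genes the day 2 and day 14 sums overlapped, and without FBL and NPM1 the 3 day 2 sums were the lowest. The day 14 sums overlapped the day 0 range by either sum. In bulk RNA, fewer cells of a kind and less RNA per cell cannot be told apart. For 32 genes the day means ran day 2, day 14, day 0 from lowest to highest, and for 20 they ran day 2, day 0, day 14. The map of all 61 genes by library shows the low day 2 block and the uneven day 0 replicate 2.

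**Figure D1:**
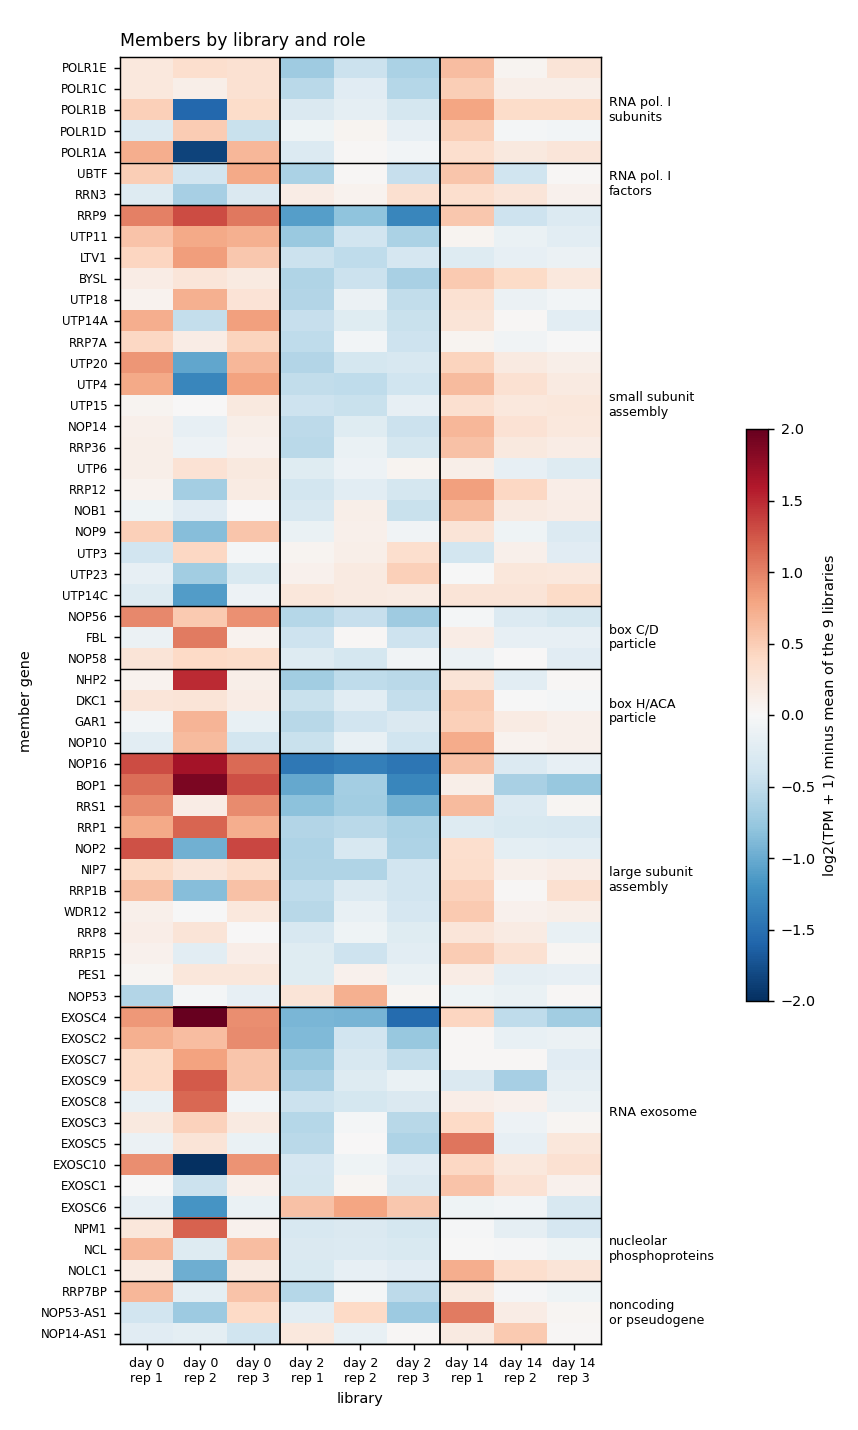
Each row is 1 of the 61 genes, grouped by role, and each column 1 library, with 3 per day. Colour gives log2(TPM + 1) minus the gene's mean over the 9 libraries, clipped at -2 and 2, so red is above and blue below that mean. Most rows are blue at day 2, and day 0 replicate 2 departs from its day in POLR1A, POLR1B, EXOSC10 and other genes.

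At day 2 against day 0, 22 of the 61 genes fell and 3 rose (36.1% and 4.92%), at an adjusted p under 0.05 in limma with Benjamini-Hochberg adjustment over the 14144 genes tested. Among all genes tested the order was the other way, with 11.5% lower and 19.2% higher. That order depended on scaling: with median-ratio scaling of the libraries 20.2% of all genes were lower and 17.7% higher. In that fit 34 of the 61 genes were lower and 2 higher. The median log2 change of the 61 genes, on the log2(TPM + 1) scale used throughout, was -0.57, against 0.23 for all genes, and 51 of the 61 changes were below 0. Without day 0 replicate 2 these medians were -0.57 and 0.02, and 53 changes were below 0. The falls were in large subunit assembly (5 of 12 genes), the small subunit processome and pre-40S factors (6 of 19), the exosome (5 of 10), RNA polymerase I subunits (2 of 5) and the small nucleolar RNA particles (2 of 3 box C/D and 2 of 4 box H/ACA genes). The 3 rises were EXOSC6, UTP23 and RRN3. The day 2 and day 0 libraries did not overlap for 33 genes that were lower at day 2 (54.1%; 17.4% of all genes) and for 6 that were higher (9.84%; 33.4% of all genes).

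**Figure D2:**
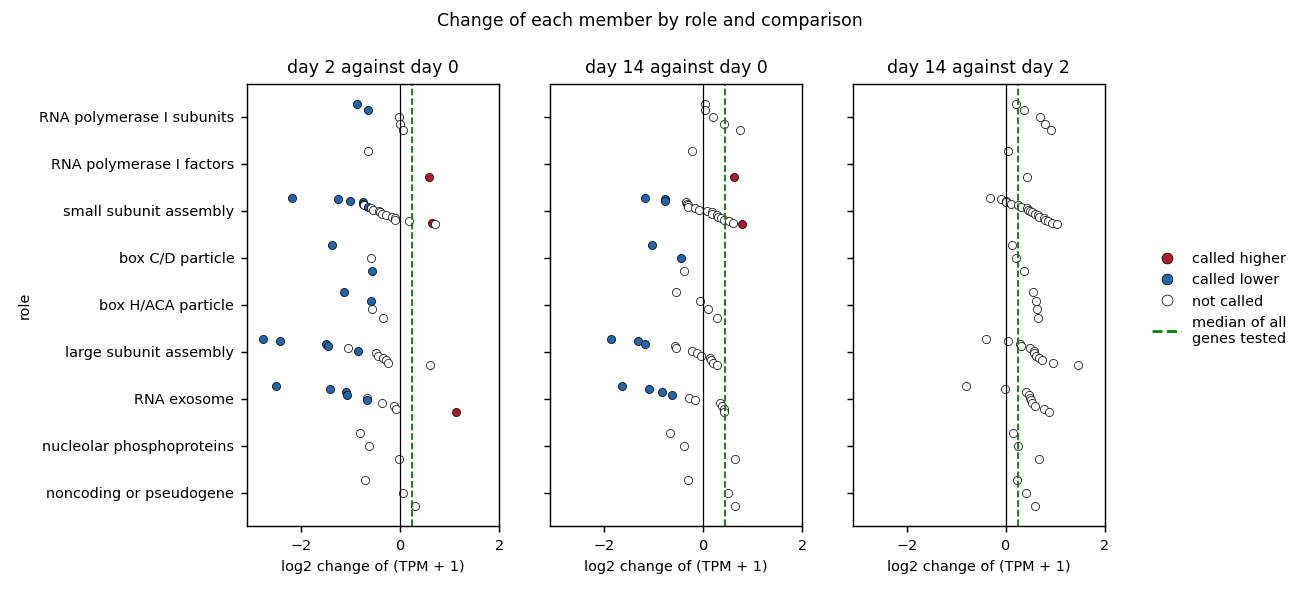
Each point is the log2 change of 1 gene in 1 comparison of days, by role, filled where the change was called (blue lower, red higher). The solid line marks no change and the dashed line the median of all genes tested, 0.23, 0.44 and 0.24 in the 3 panels. At day 2 most points lie left of both lines, and at day 14 against day 2 most lie to the right of 0 with none called.

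RNA polymerase I itself changed in part. POLR1E, the subunit known as PAF53, had 83.3, 90.8 and 88.6 TPM at day 0, 43.2, 52.9 and 46 TPM at day 2 and 110, 74.9 and 86 TPM at day 14. All 3 day 2 values lay below the other 6, and the log2 change at day 2 was -0.88 ± 0.18 (SE, adjusted p = 0.00838). POLR1C, which is shared with RNA polymerase III, had 31.8, 29.6 and 34 TPM at day 0, 18.5, 23.3 and 18 TPM at day 2 and 38.8, 29.7 and 29.6 TPM at day 14. It was lower in every day 2 library than in any day 0 library, with a log2 change of -0.66 ± 0.18 (SE, adjusted p = 0.0269). POLR1D, its partner and also shared with RNA polymerase III, had 61.2, 67.2 and 57.8 TPM at day 2, against 53.6, 92.4 and 47.6 TPM at day 0, and these ranges overlapped.

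The values of the largest subunits depended on day 0 replicate 2. POLR1A, the catalytic subunit, had 20.1, 2.57 and 19.2 TPM at day 0, 9.63, 12 and 11.4 TPM at day 2 and 15.1, 13.7 and 14.1 TPM at day 14, and POLR1B, the second largest, had 18.7, 3.78 and 17.3 TPM at day 0, 10.6, 11.5 and 10.1 TPM at day 2 and 23.4, 17.2 and 17.2 TPM at day 14. In both the day 0 values spanned those of day 2 through that single library. With it, the log2 changes at day 2 were 0.06 ± 0.60 (SE, adjusted p = 0.95) for POLR1A and -0.03 ± 0.49 (SE, adjusted p = 0.963) for POLR1B. Without it, POLR1A gave -0.79 (adjusted p = 0.00147) and POLR1B -0.70 (adjusted p = 0.00748), so the sign for POLR1A turned to lower.

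The factors went different ways. RRN3, the human TIF-IA, links the polymerase to its promoter, and its activity is known to follow nutrient signals. It had 41.5, 31.2 and 40.7 TPM at day 0, 55.2, 52.5 and 62.7 TPM at day 2 and 63.3, 59.1 and 52.9 TPM at day 14, higher in each day 2 and day 14 library than in any day 0 library. The log2 change was 0.58 ± 0.18 (SE, adjusted p = 0.0356) at day 2 and 0.62 ± 0.18 (SE, adjusted p = 0.0257) at day 14. With median-ratio scaling of the libraries these changes were 0.24 (adjusted p = 0.337) and 0.03 (adjusted p = 0.915), so neither call held. With quantile normalization they were 0.59 (adjusted p = 0.0105) and 0.38 (adjusted p = 0.0611), so only the call at day 2 held. UBTF, which binds ribosomal DNA along its length, had 40, 21.4 and 48.4 TPM at day 0, 17.7, 28.6 and 20.2 TPM at day 2 and 41.9, 21.1 and 28.5 TPM at day 14. Its days overlapped, with a log2 change at day 2 of -0.65 ± 0.36 (SE, adjusted p = 0.195) and, without day 0 replicate 2, of -0.99 (adjusted p = 0.0278). The rise of RRN3 and the fall of POLR1E were each tested alone, and the difference between them was not tested.

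**Figure D3:**
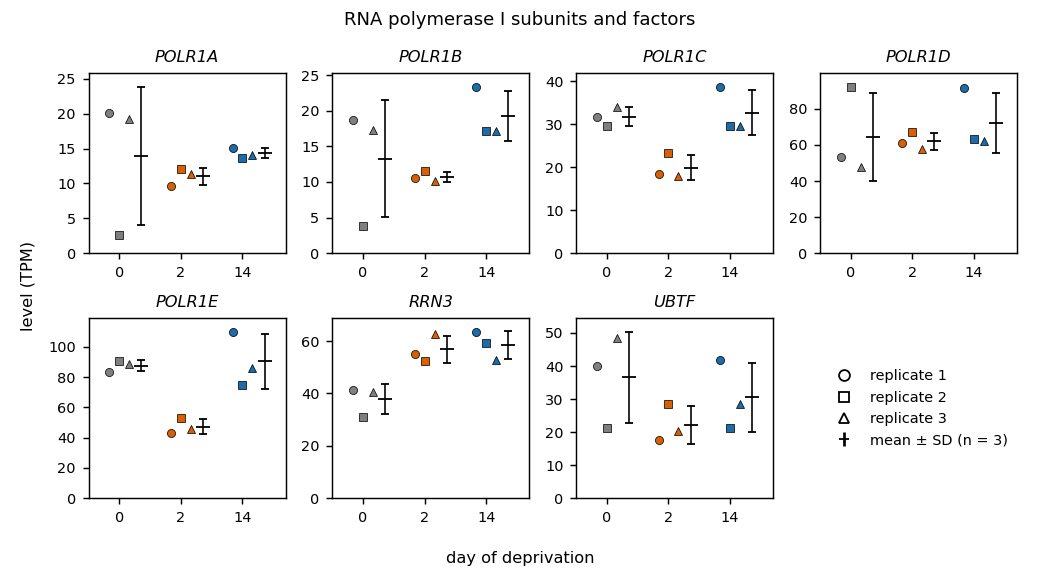
The 7 panels show the level in TPM of each RNA polymerase I subunit and factor by day, with 1 symbol per replicate and the mean ± SD of 3 libraries beside them. POLR1E and POLR1C are lowest in all 3 day 2 libraries, RRN3 is lowest in the day 0 libraries, and POLR1A and POLR1B each have 1 low day 0 value, replicate 2.

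Small subunit assembly fell at day 2 in 6 of 19 genes and rose in 1, with a median log2 change of -0.43. Of all genes tested, 11.5% fell and 19.2% rose. RRP9, a U3 small nucleolar RNA binding protein, had 78.2, 96.1 and 80.9 TPM at day 0, 17.4, 21.5 and 15 TPM at day 2 and 56.2, 28.7 and 31.8 TPM at day 14. The day 2 libraries lay far below day 0, with a log2 change of -2.19 ± 0.27 (SE, adjusted p = 0.00084). UTP11, a processome protein, had 12.7, 16.6 and 13.8 TPM at day 2, against 33, 37.6 and 36.5 TPM at day 0, for a log2 change of -1.26 ± 0.17 (SE, adjusted p = 0.00125). LTV1, which leaves the small subunit precursor late in its assembly, had 20.8, 19.7 and 22.1 TPM at day 2, against 38.5, 51 and 41.6 TPM at day 0, for a log2 change of -1.02 ± 0.17 (SE, adjusted p = 0.0028). BYSL, also a late factor, had 19.5, 22.2 and 18.9 TPM at day 2, against 33.7, 36 and 34.4 TPM at day 0. Its fall was smaller, at -0.75 ± 0.16 (SE, adjusted p = 0.00859), and like those of RRP9, UTP11 and LTV1 it separated the days completely.

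The other called small subunit genes were nearer the threshold. UTP18 had a log2 change of -0.75 ± 0.23 (SE, adjusted p = 0.0363) and RRP7A of -0.66 ± 0.19 (SE, adjusted p = 0.0266), while UTP23 rose by 0.64 ± 0.21 (SE, adjusted p = 0.0452), with 10.4, 11.1 and 14 TPM at day 2, against 8.57, 5.65 and 7.66 TPM at day 0. With median-ratio scaling UTP23 gave 0.33 (adjusted p = 0.195) and was not called. UTP14C, a retrotransposed copy of UTP14A whose reads may be shared with it, had 7.03, 6.77 and 6.68 TPM at day 2, against 4.7, 2.16 and 5.33 TPM at day 0 and missed the threshold, at 0.69 ± 0.26 (SE, adjusted p = 0.075). The parent gene UTP14A gave -0.74 ± 0.33 (SE, adjusted p = 0.121). Without day 0 replicate 2, UTP14C gave 0.38 (adjusted p = 0.0205) and UTP14A -1.16 (adjusted p = 0.000828). UTP4, UTP15 and UTP20 belong to the processome as well, and none was called with all 9 libraries. UTP20, whose upstream sequence holds the E-box, had 7.24, 8.68 and 8.86 TPM at day 2, against 21.7, 5 and 18.5 TPM at day 0, and its low day 0 value is replicate 2. NOB1, the endonuclease that makes the final cut of 18S rRNA, overlapped between the days, with a log2 change of -0.11 ± 0.21 (SE, adjusted p = 0.706).

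The proteins of the small nucleolar RNA particles fell at day 2 in 4 of 7 genes, where 11.5% of all genes fell. NOP56, a core protein of box C/D particles, had 208, 154 and 201 TPM at day 0, 71.3, 77 and 64.5 TPM at day 2 and 103, 88 and 83.1 TPM at day 14. Every day 2 value was below every day 0 value, and the log2 change was -1.38 ± 0.18 (SE, adjusted p = 0.00108). Its partner NOP58 had 77.5, 72.2 and 87.7 TPM at day 2, against 111, 122 and 119 TPM at day 0, a smaller change of -0.57 ± 0.15 (SE, adjusted p = 0.0232). FBL, the enzyme of the particle and the highest of the 61 genes, had 2250, 3040 and 2250 TPM at day 2, against 2760, 6150 and 3140 TPM at day 0, with 1 day 2 value inside the day 0 range and a log2 change of -0.60 ± 0.31 (SE, adjusted p = 0.173). In the box H/ACA particle, which makes pseudouridine, DKC1, the enzyme, had 98.9, 116 and 97.3 TPM at day 2, against 160, 162 and 150 TPM at day 0, a change of -0.59 ± 0.19 (SE, adjusted p = 0.0455). NHP2 averaged 143 ± 10.3 TPM at day 2 and 352 ± 216 TPM at day 0 (SD, n = 3 each), a change of -1.14 ± 0.36 (SE, adjusted p = 0.0418), and without the high value of day 0 replicate 2 it was -0.67 (adjusted p = 0.00705). The call of NHP2 was also lost with median-ratio scaling, at -1.49 (adjusted p = 0.0631), but not with quantile normalization, at -0.86 (adjusted p = 0.0292). GAR1 and NOP10 gave -0.57 and -0.35, neither called (adjusted p = 0.108 and 0.392).

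Large subunit assembly fell at day 2 in 5 of 12 genes, where 11.5% of all genes fell. NOP16, a nucleolar factor of the large subunit precursor, had 81.8, 106 and 73 TPM at day 0, 11.5, 12 and 11.4 TPM at day 2 and 49.4, 26.8 and 29.1 TPM at day 14. The log2 change at day 2 was -2.78 ± 0.25 (SE, adjusted p = 0.000259), the largest fall among the 61 genes. BOP1 had 150, 254 and 169 TPM at day 0, 33.1, 42.3 and 27 TPM at day 2 and 73.9, 43.4 and 40 TPM at day 14, for a log2 change at day 2 of -2.43 ± 0.30 (SE, adjusted p = 0.000892). BOP1 works in a complex with PES1 and WDR12, and neither of those was called. PES1 had 71.8, 90.2 and 77.7 TPM at day 2, against 87.1, 99.2 and 99.4 TPM at day 0, a change of -0.25 ± 0.17 (SE, adjusted p = 0.278), and WDR12 had 18.7, 25.1 and 22 TPM at day 2, against 30, 28 and 32.6 TPM at day 0, a change of -0.45 ± 0.19 (SE, adjusted p = 0.102). Only BOP1 of the complex passed the test with all 9 libraries, WDR12 passed without day 0 replicate 2 at -0.50 (adjusted p = 0.045), and the difference between the members was not tested.

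RRP1, with 22.4, 23 and 21.5 TPM at day 2, against 58.2, 77.8 and 56.9 TPM at day 0, gave -1.47 ± 0.17 (SE, adjusted p = 0.000632). RRS1, which helps bring 5S rRNA into the subunit, had 22.7, 24.7 and 20.7 TPM at day 2, against 79.6, 45.3 and 79.2 TPM at day 0, for a log2 change of -1.50 ± 0.29 (SE, adjusted p = 0.00607). NIP7 had 17.6, 17.6 and 20.7 TPM at day 2, against 35.7, 32.2 and 35 TPM at day 0, for a log2 change of -0.85 ± 0.16 (SE, adjusted p = 0.0051). All 3 separated the days. NOP2, a methyltransferase of 28S rRNA, had 14.6, 18 and 14.5 TPM at day 2, against 56.6, 11.2 and 58.8 TPM at day 0. Its low day 0 value was replicate 2, the change was -1.06 ± 0.55 (SE, adjusted p = 0.17), and without that library it was -1.82 (adjusted p = 0.000322). NOP53, known for its role in the p53 response, was the only gene of this role above 0, with 74.9, 103 and 63.8 TPM at day 2, against 41.1, 60.5 and 55.5 TPM at day 0 and a change of 0.60 ± 0.22 (SE, adjusted p = 0.0718).

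**Figure D4:**
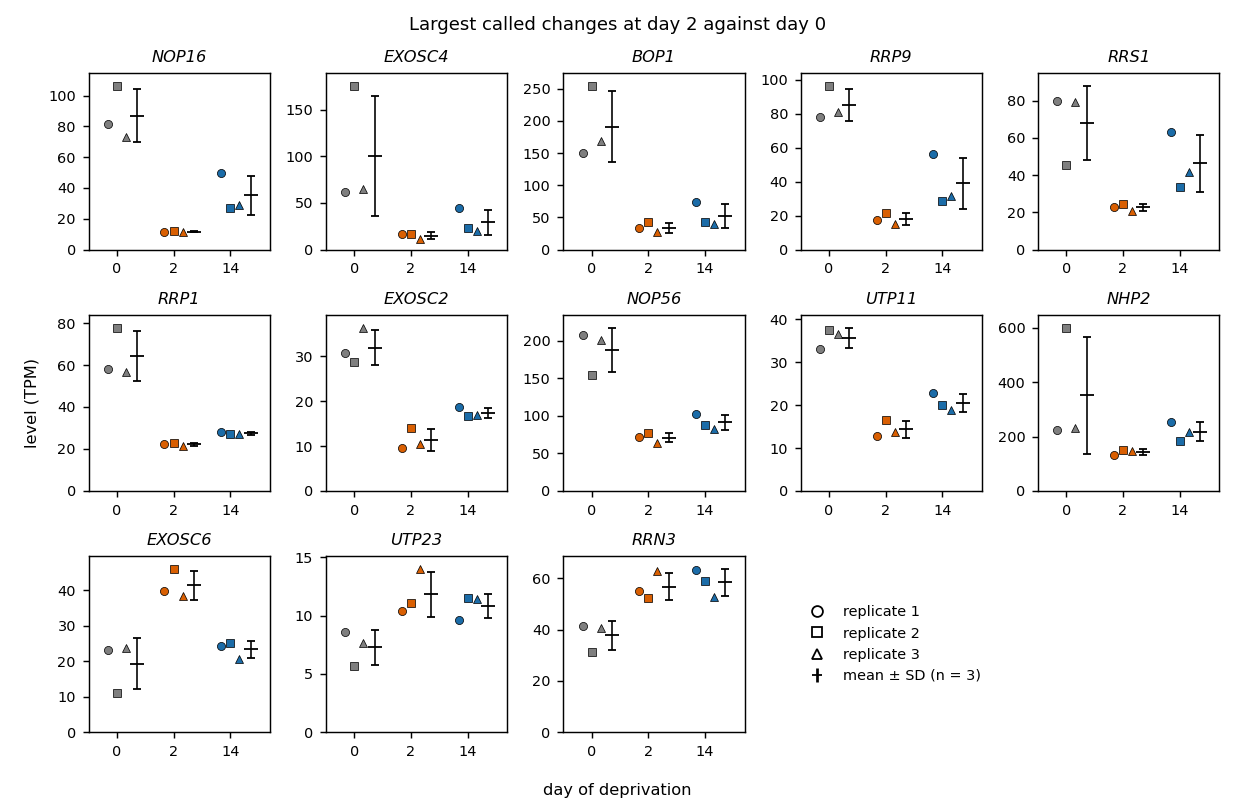
Levels in TPM of the 10 largest falls and the 3 rises called at day 2 against day 0, by day, with 1 symbol per replicate and the mean ± SD of 3 libraries. NOP16 lies at 11.4 to 12 TPM at day 2, against 73.0 to 106 TPM at day 0, and at day 14 it lies between them. EXOSC6, UTP23 and RRN3 are higher at day 2 than at day 0.

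Subunits of the exosome moved in opposite directions. The cap protein EXOSC2 had 30.7, 28.8 and 36.4 TPM at day 0, 9.55, 14 and 10.5 TPM at day 2 and 18.7, 16.6 and 16.9 TPM at day 14, for a log2 change at day 2 of -1.43 ± 0.19 (SE, adjusted p = 0.00121). The ring protein EXOSC4 had 61.3, 175 and 64.5 TPM at day 0, 17.1, 17 and 10.8 TPM at day 2 and 44.9, 23 and 20.1 TPM at day 14. Its log2 change at day 2 was -2.52 ± 0.45 (SE, adjusted p = 0.00433), and -2.03 (adjusted p = 0.0024) without the high day 0 replicate 2. EXOSC7 and EXOSC9, also of the ring, changed by -1.10 ± 0.19 (SE, adjusted p = 0.00372) and by -1.07 ± 0.27 (SE, adjusted p = 0.0175), and the cap protein EXOSC3 by -0.67 ± 0.22 (SE, adjusted p = 0.0475). EXOSC6, a ring protein too, had 23.3, 11 and 23.7 TPM at day 0, 39.7, 46 and 38.4 TPM at day 2 and 24.4, 25.2 and 20.7 TPM at day 14. It was higher in every day 2 library than in the other 6, with a change of 1.13 ± 0.28 (SE, adjusted p = 0.0175). EXOSC10, the nuclear exonuclease bound to the core, gave -0.12 ± 0.70 (SE, adjusted p = 0.911) with all libraries and -1.13 (adjusted p = 0.000265) without day 0 replicate 2. EXOSC1, EXOSC5 and EXOSC8 were not called.

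None of the nucleolar phosphoproteins NPM1, NCL and NOLC1 was called at day 2. NCL, nucleolin, had 654, 344 and 633 TPM at day 0, 337, 340 and 335 TPM at day 2 and 409, 406 and 388 TPM at day 14, and NPM1, nucleophosmin, which has many pseudogenes that could share its reads, had 1240, 2410 and 1130 TPM at day 0, 851, 864 and 836 TPM at day 2 and 1050, 934 and 840 TPM at day 14. For both NPM1 and NCL every day 2 value lay below every day 0 value. For NCL day 0 replicate 2 lay close to the day 2 values and the other day 0 libraries far above them. The log2 changes were -0.82 ± 0.28 (SE, adjusted p = 0.0568) and -0.63 ± 0.25 (SE, adjusted p = 0.0835), and without that library NPM1 gave -0.47 (adjusted p = 0.0121) and NCL -0.93 (adjusted p = 0.000184). NOLC1 gave -0.02 ± 0.31 (SE, adjusted p = 0.967) with all libraries and -0.40 (adjusted p = 0.0538) without day 0 replicate 2. The noncoding members were not called either. RRP7BP had 2.12, 3.49 and 2.23 TPM at day 2, against 6.29, 3.02 and 5.88 TPM at day 0, and its sequence is close to that of RRP7A, so their reads may be split. NOP14-AS1 and NOP53-AS1 overlap coding genes and the strand of the libraries is not given, so their values are uncertain.

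Without day 0 replicate 2, 38 genes were lower and 5 higher at day 2, where 23.6% and 24.7% of all genes were. All 25 calls made with 9 libraries were also made without it, and the added falls included NOP2, UTP4, UTP20, EXOSC10, NCL and POLR1A. Other libraries took calls away. Leaving out day 2 replicate 1 left 14 falls and no rise, where 6.74% of all genes fell and 12.6% rose, and of the 11 calls it ended the adjusted p was then 0.137 for DKC1, 0.157 for EXOSC3, 0.0519 for EXOSC6, 0.0723 for EXOSC9, 0.118 for NHP2, 0.0848 for NOP58, 0.1 for POLR1C, 0.0957 for RRN3, 0.111 for RRP7A, 0.126 for UTP18 and 0.0827 for UTP23. Over all 9 fits that left out 1 library, the highest adjusted p of these 11 genes was 0.063 (EXOSC6, without day 2 replicate 2) to 0.164 (UTP23). Fits without any 1 of day 0 replicates 1 and 3, day 2 replicates 2 and 3 and the day 14 libraries left 16 to 21 falls and 0 to 3 rises, where 6.85% to 11% of all genes fell and 11.8% to 19.7% rose. NOP16, BOP1, EXOSC4, RRP9, RRS1, RRP1, EXOSC2, NOP56, UTP11, EXOSC7, LTV1, POLR1E, NIP7 and BYSL were called in all 9 of these fits.

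At day 14 against day 0, 12 genes were lower and 2 higher (19.7% and 3.28%), where 6.72% of all genes tested were lower and 27.5% higher. The median log2 change of the 61 genes was -0.06, against 0.44 for all genes, and 29 changes were above 0. That number dropped to 7 with median-ratio scaling and 14 with quantile normalization. Median-ratio scaling also lowered the median of all genes, as given below. Without day 0 replicate 2 the medians were -0.09 for the 61 genes and 0.25 for all genes. With median-ratio scaling 22 genes were lower and 0 higher, where 18.3% and 15.4% of all genes were. The libraries did not overlap for 15 genes that were lower at day 14 (24.6%; 9.95% of all genes) and for 9 that were higher (14.8%; 42.5% of all genes). This comparison shares its day 0 libraries with the one at day 2, so their calls are not independent. The falls were BOP1, NOP16 and RRP1 of the large subunit factors, RRP9, LTV1 and UTP11 of the small subunit factors, NOP56 and NOP58 of the box C/D particle, and EXOSC2, EXOSC4, EXOSC7 and EXOSC9 of the exosome. No RNA polymerase I subunit, box H/ACA or phosphoprotein gene was called.

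BOP1 had the largest fall at day 14, with 73.9, 43.4 and 40 TPM at day 14, against 150, 254 and 169 TPM at day 0 and a log2 change of -1.86 ± 0.30 (SE, adjusted p = 0.00295). NOP16 gave -1.32 ± 0.25 (SE, adjusted p = 0.00553), RRP9 -1.17 ± 0.27 (SE, adjusted p = 0.0115) and RRP1 -1.18 ± 0.17 (SE, adjusted p = 0.00172). For NOP16, RRP9 and RRP1 every day 14 value lay above every day 2 value and below every day 0 value. NOP56 changed by -1.03 ± 0.18 (SE, adjusted p = 0.00385), EXOSC2 by -0.84 ± 0.19 (SE, adjusted p = 0.0114), UTP11 by -0.77 ± 0.17 (SE, adjusted p = 0.00996) and LTV1 by -0.78 ± 0.17 (SE, adjusted p = 0.0083). EXOSC9 had 8.37, 6.24 and 9.12 TPM at day 14, against 14.1, 25.8 and 15.8 TPM at day 0, for a log2 change of -1.10 ± 0.27 (SE, adjusted p = 0.0148), with 6.29, 8.63 and 9.41 TPM at day 2. UTP14C rose, with 7.14, 7.13 and 7.92 TPM at day 14, against 4.7, 2.16 and 5.33 TPM at day 0 and a change of 0.79 ± 0.26 (SE, adjusted p = 0.045). With median-ratio scaling it gave 0.30 (adjusted p = 0.14) and was not called.

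Genes that had fallen at day 2 and were not called at day 14 included POLR1E, POLR1C, BYSL and NIP7. BYSL had 44, 39.5 and 35 TPM at day 14, against 33.7, 36 and 34.4 TPM at day 0, for a log2 change of 0.18 ± 0.16 (SE, adjusted p = 0.402), and POLR1E gave 0.03 ± 0.18 (SE, adjusted p = 0.917). With median-ratio scaling both were below 0, at -0.41 and -0.57. Without day 0 replicate 2, 24 genes were lower and 3 higher at day 14, where 14.5% and 34.6% of all genes were, and all 14 calls with 9 libraries were also made without it. EXOSC10 then gave -0.60 (adjusted p = 0.00361), UTP20 -0.53 (adjusted p = 0.0198), POLR1A -0.43 (adjusted p = 0.0187) and UTP4 -0.40 (adjusted p = 0.0476), each with the opposite sign to the value from 9 libraries.

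Leaving out other libraries ended 6 of the 14 calls at day 14. The fit without day 14 replicate 2 left 8 falls and no rise, that without day 14 replicate 1 left 10 falls and no rise, and that without day 14 replicate 3 left 9 falls and 1 rise. Fits without 1 of the day 2 libraries left 10 or 11 falls and 1 rise. In these 6 fits 4.46% to 6.01% of all genes fell and 18% to 23.9% rose. EXOSC4 was lost without day 14 replicate 2 (adjusted p = 0.0763) or replicate 3 (0.0804) and EXOSC9 without day 14 replicate 2 (adjusted p = 0.0587). RRN3 was lost without day 14 replicate 1 (adjusted p = 0.0758) or replicate 2 (0.0785). EXOSC7 lost its call in the fits without replicate 3 of day 0, replicate 3 of day 2 or any day 14 library (adjusted p = 0.0573 to 0.109). UTP14C was lost without any 1 of the day 2 and day 14 libraries (adjusted p = 0.0686 to 0.122), and NOP58 without any 1 of the libraries other than day 0 replicate 2 (adjusted p = 0.0674 to 0.152). BOP1, NOP16, RRP1, RRP9, NOP56, EXOSC2, UTP11 and LTV1 were called in all 9 such fits.

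At day 14 against day 2, 55 of the 61 log2 changes were above 0 (90.2%; 75.1% of all genes), with a median of 0.49, against 0.24 for all genes. With median-ratio scaling, which also lowered the median of all genes, 45 were above 0, and with quantile normalization 48. With all 9 libraries limma called none of the 61 higher and none lower, and it called 0.212% of all genes higher and 0.205% lower. At an unadjusted p under 0.05, 21 of the 61 genes were higher and 1 lower, where 14.7% and 3.4% of all genes were. The nearest to the threshold were BYSL, at 0.93 ± 0.16 (SE, adjusted p = 0.0562), and NOP16, at 1.46 ± 0.25 (SE, adjusted p = 0.0564). The libraries did not overlap for 38 genes that were higher at day 14 (62.3%; 36.8% of all genes) and for 2 that were lower (3.28%; 7% of all genes), EXOSC6 and NOP53.

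The number of calls depended on day 0 replicate 2, which enters this comparison only through the estimate of spread. The changes between day 14 and day 2 are the same without it, but the median standard error of the 61 genes was 0.14 without it and 0.24 with it. Without it, 31 genes were higher at day 14 than at day 2 and 1 was lower, where 23.5% and 3.86% of all genes were. With only the day 2 and day 14 libraries in the fit, 21 were higher and 1 lower, where 16.2% and 2.89% of all genes were. The 31 took in all 4 box H/ACA genes and POLR1A, POLR1B, POLR1C and POLR1E of the polymerase.

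NOP16, with 49.4, 26.8 and 29.1 TPM at day 14, against 11.5, 12 and 11.4 TPM at day 2, gave 1.46 (adjusted p = 0.00799) in that fit. RRP9 gave 1.02 (adjusted p = 0.0248), RRS1 0.95 (adjusted p = 0.0196) and BYSL 0.93 (adjusted p = 0.00603). POLR1E had 110, 74.9 and 86 TPM at day 14, against 43.2, 52.9 and 46 TPM at day 2, and gave 0.90 (adjusted p = 0.0106). The gene that fell was EXOSC6, at -0.80 (adjusted p = 0.00763), with 24.4, 25.2 and 20.7 TPM at day 14, against 39.7, 46 and 38.4 TPM at day 2. This ring subunit, high at day 2, had day 14 values that overlapped those of day 0.

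Day 14 replicate 1 was the highest of its day for 52 of the 61 genes (85.2%; 51.5% of all genes), and its microRNA symbols took 26.9% of TPM, against 34.1% and 34.9% in the other day 14 libraries. Day 2 replicate 2 was the highest of its day for 44 genes (72.1%; 63.0% of all genes), with 33% of TPM in microRNA symbols, against 40.9% and 41.9%. The part of these shares in the changes was not tested. Scaling moved the median of all genes. By median-ratio scaling that median was -0.05, -0.05 and 0.02 at day 2 against day 0, at day 14 against day 0 and at day 14 against day 2. Relative to all genes, the median of the 61 was -0.80, -0.50 and 0.26 with TPM as deposited and -0.86, -0.58 and 0.23 with that scaling.

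**Figure D5:**
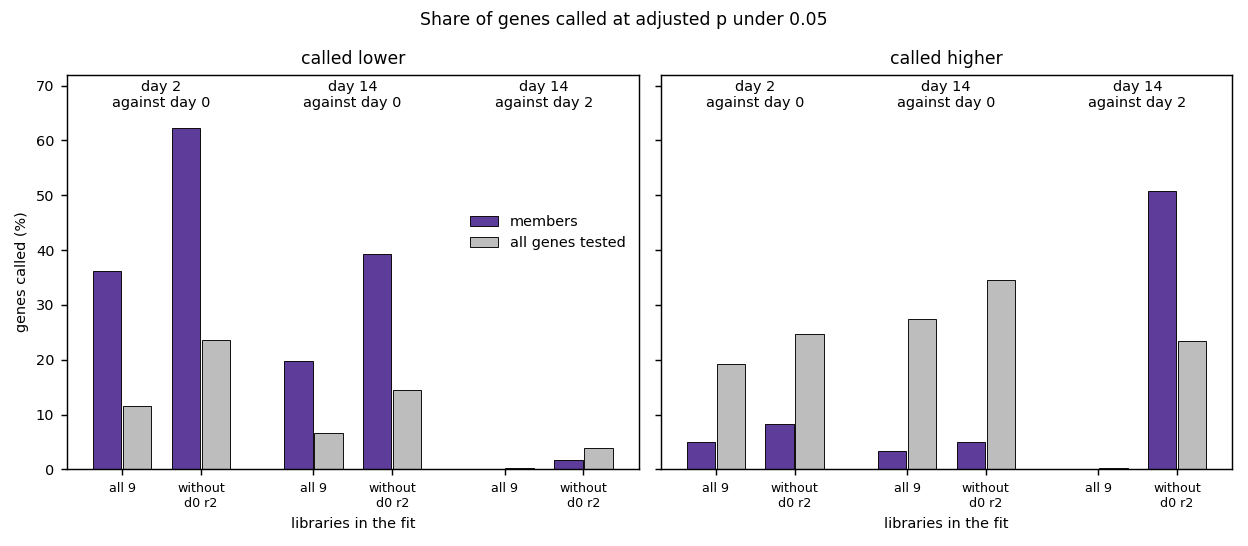
Bars give the percent of genes called lower (left) and higher (right) at an adjusted p under 0.05 in each comparison, purple for the 61 genes and grey for all genes tested, with all 9 libraries and without day 0 replicate 2 (d0 r2). Against day 0, 36.1% of the 61 genes and 11.5% of all genes were lower at day 2, and 19.7% and 6.72% at day 14. For day 14 against day 2, the fit with all 9 libraries called none of the 61 and the fit without day 0 replicate 2 called 31 higher.

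Other genes of ribosome biogenesis, 158 in all and all tested, were listed from the same processes: other polymerase I genes, processome and pre-40S factors, large subunit factors, exosome cofactors and particle assembly factors. At day 2 against day 0, 46 fell and 8 rose (29.1% and 5.06%), where 11.5% of all genes fell and 19.2% rose. Their median log2 change was -0.35. EBNA1BP2, a large subunit factor, had 361, 422 and 348 TPM at day 0, 74.2, 71.9 and 77.5 TPM at day 2 and 271, 154 and 178 TPM at day 14, a change at day 2 of -2.32 ± 0.22 (SE, adjusted p = 0.000309). RUVBL1, an ATPase that helps assemble the particles, changed by -2.13 ± 0.17 (SE, adjusted p = 0.000152), and WDR46, a processome protein, by -1.93 ± 0.21 (SE, adjusted p = 0.000485). The exosome cofactors stood at 2 falls and 3 rises of 16. The largest rises were RIOK3, a kinase bound to the small subunit precursor, at 1.63 ± 0.16 (SE, adjusted p = 0.000373), with 49.1, 44.5 and 49.7 TPM at day 2, against 15.4, 14 and 14.9 TPM at day 0, then ZCCHC8, of the nuclear exosome targeting complex, at 1.33 ± 0.41 (SE, adjusted p = 0.0386), and RSL24D1, a large subunit factor, at 1.17 ± 0.29 (SE, adjusted p = 0.0177). ZCCHC8 lost its call without any 1 of the day 2 and day 14 libraries (adjusted p = 0.0556 to 0.104). RSL24D1 lost its call without day 0 replicate 3 (0.0514) or day 2 replicates 1 (0.0572) or 3 (0.06). It also lost it with median-ratio scaling, at 0.82 (adjusted p = 0.216), but not with quantile normalization, at 1.36 (adjusted p = 0.00728).

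At day 14 against day 0, 22 of these 158 genes rose and 21 fell (13.9% and 13.3%), where 27.5% of all genes rose and 6.72% fell. Their median was 0.15. RUVBL2, the partner of RUVBL1, fell, at -1.51 ± 0.18 (SE, adjusted p = 0.000768), as did the processome protein TBL3, at -1.27 ± 0.23 (SE, adjusted p = 0.00461), and the large subunit factor BRIX1, at -1.23 ± 0.21 (SE, adjusted p = 0.00325). RIOK3 rose by 1.93 ± 0.16 (SE, adjusted p = 0.000236), ZCCHC8 by 1.79 ± 0.41 (SE, adjusted p = 0.0113) and PAK1IP1, a large subunit factor, by 1.59 ± 0.20 (SE, adjusted p = 0.000946). At day 14 against day 2, 1 rose, EBNA1BP2, at 1.38 ± 0.22 (SE, adjusted p = 0.0479). Its call was lost without any 1 of the libraries other than day 0 replicate 2 (adjusted p = 0.0825 to 0.241). It was also lost with median-ratio scaling, at 1.12 (adjusted p = 0.174), but not with quantile normalization, at 1.20 (adjusted p = 0.0219). Of all genes, 0.212% rose in that comparison. Without day 0 replicate 2, the 158 genes showed 17 rises and 86 falls at day 2, where 24.7% of all genes rose and 23.6% fell. They showed 36 rises and 44 falls at day 14 against day 0, where 34.6% of all genes rose and 14.5% fell. For day 14 against day 2 there were 76 rises, where 23.5% of all genes rose.

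MYC, the factor named above, rose at both later days. It had 30.9, 10.6 and 30.3 TPM at day 0, 56.8, 62.5 and 61.2 TPM at day 2 and 128, 80.9 and 99.7 TPM at day 14, with no overlap between the days. Its log2 change was 1.43 ± 0.38 (SE, adjusted p = 0.0216) at day 2 and 2.18 ± 0.38 (SE, adjusted p = 0.00377) at day 14, each against day 0. The low day 0 value was replicate 2. Without that library the changes were smaller, at 0.95 (adjusted p = 0.00389) and 1.69 (adjusted p = 0.000365). The call at day 2 was lost without any 1 of the day 2 libraries (adjusted p = 0.0581 to 0.0653). MYC protein was not measured here.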

How the data were processed

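Per the submitters' processing notes, Salmon and the build hg19 were used for the table of TPM by gene symbol that the authors deposited. Its version, the annotation, the strand setting and read filters are not given in the sources used here. A TPM value is relative within a library and keeps no sequencing depth, so no counting interval can be given. Columns were matched to samples by day and replicate number, and days were taken from the sample titles.

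Values were analysed as log2(TPM + 1), which understates the change of low genes, over the 14144 genes that reached 1 TPM in 3 or more libraries. limma 3.58.1 (R 4.3.3), with an intensity trend and all 9 libraries in 1 fit, compared the days 2 at a time. Tests were two-sided, adjusted by Benjamini-Hochberg over these genes and called at 0.05. The code was run on simulated data with independent normal values and the same spread for a gene in every library. That run held no library that stood apart, so it cannot bear on the effect of day 0 replicate 2. With 3 libraries against 3 an exact permutation test of 1 gene cannot go below 0.1, so none was run. In all, 22 alternatives were tried, 1 of them (without microRNA symbols) chosen after seeing the data. Plots were drawn with matplotlib 3.10.9. Promoter sequences are from RefSeq (GRCh38.p14), matched by symbol, and transcript lengths from GENCODE.

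The genes, lists and roles were chosen with earlier results of these data known. Any of the 61 genes could be named. Values by library were given for the largest changes and for at least some genes of each role. Other genes were named only from the lists (up to 3 rises and 3 falls per comparison, with a mean of at least 5 TPM in the higher group), together with MYC and cell type markers.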

Additional observations from a re-analysis of the deposited data

How the results depend on the processing

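Of the 25 calls at day 2 against day 0, 14 held under all 22 alternatives, as did 8 of 14 at day 14. Leaving out 1 library at a time gave 14 to 38 lower and 0 to 5 higher at day 2 against day 0, 8 to 24 and 0 to 3 at day 14 against day 0, and 0 to 1 and 0 to 31 at day 14 against day 2. Of all genes those fits called 6.74% to 23.6% lower and 11.8% to 24.7% higher, 4.46% to 14.5% and 18% to 34.6%, and 0% to 3.86% and 0% to 23.5%. Array weights, which give day 0 replicate 2 less weight, gave 49 lower and 6 higher (33% and 30.5% of all genes), then 28 and 6 (19.7% and 40.1%), then 1 and 39 (4.56% and 31.2%). Median-ratio scaling gave 34 lower and 2 higher (20.2% and 17.7% of all genes), then 22 and 0 (18.3% and 15.4%), then 1 and 0 (0.677% and 0.271%). Quantile normalization gave 33 and 3 (19.9% and 18.3%), then 19 and 0 (17.4% and 17.1%), then 1 and 2 (1.56% and 0.848%). With only the days compared in the fit there were 16 and 1 (8.89% and 14.3%), then 9 and 0 (4.3% and 17.7%), then 1 and 21 (2.89% and 16.2%). For genes higher at day 14 against day 0, 1 was called with a pseudocount of 0.1 (25.4% of all genes). The same number was called with no filter (17.9%) and with a mean of at least 5 TPM (24.2%), and 0 without microRNA symbols (20.1%). For genes higher at day 14 against day 2, 1 was called with a pseudocount of 5 (0.502% of all genes). The same number was called with no filter (0.153%) and without ribosomal protein genes (0.579%).

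Signs turned for a few genes. Under array weights POLR1A gave -0.80 at day 2 against day 0, and at day 14 against day 0 EXOSC10 gave -0.60, POLR1A -0.42, RRP1B -0.34, UTP20 -0.55 and UTP4 -0.48. Leaving out 1 library gave POLR1A -0.79 to 0.50 at day 2 against day 0. At day 14 against day 0 it gave EXOSC10 -0.60 to 0.92, POLR1A -0.43 to 0.85, UTP20 -0.53 to 0.43, UTP4 -0.40 to 0.65, and the median of the 61 genes -0.16 to 0.05. The cause was not tested.

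The replicate numbers are shared between days but name no pairing: deviations of same-numbered libraries correlated at -0.08 to 0.02, and a library correlated best with its own number in 1 of 18 cases. A fit with the replicate number as a block gave 15 lower and 1 higher (8.67% and 14.6% of all genes) at day 2 against day 0. At day 14 it gave 10 and 0 (5.18% and 21.5%) against day 0, and 0 and 0 (0.00707% each way) against day 2.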
